A study of Mus musculus with 72 samples.

Results

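The effect of gastrin-releasing peptide (GRP) on melanoma cells that were given the receptor antagonist RC-3095 (RC) at the same time was examined in line 1057. Members were picked out by their labels, though with earlier results of these data known. They comprised 6 of the 72 RNA-seq libraries of the series, 3 from cells given 10 nM GRP with 1 µM RC (GRP+RC) and 3 from cells given 1 µM RC. The cells had been kept for 18 h in medium with 0.5% serum and were then treated for 4 h. 1057 is 1 mouse melanoma line with the genotype Tyr::NRASQ61K/°; Cdkn2a-/-;Tyr::CreA/°;Cdh1dF/dF, so that the mutant NRAS and the Cre that deletes E-cadherin (Cdh1) are both driven by the promoter of tyrosinase, a gene of melanocytes. These alleles, and the label of a line that expresses the GRP receptor Grpr, were shared by every 1057 library. The other 6 libraries of 1057, 3 mock-treated with 0.1% DMSO and 3 given 10 nM GRP alone, gave the size of the GRP effect without the antagonist. DMSO is given for the mock libraries alone, so contrasts with mock may also differ in vehicle, which was not tested.

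GRP is a small peptide hormone whose receptor couples to the G protein Gq. Gq activates phospholipase C, which raises calcium in the cytosol and activates protein kinase C, and the MAP kinase cascade that follows switches on immediate early genes within the first hours. RC-3095 is a synthetic peptide that binds the receptor and opposes GRP and related peptides, so a comparison of GRP+RC with RC asks how much of the response to GRP is left when the antagonist is present on both sides.

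Between 30085078 and 38579416 reads were counted in each of the 12 libraries of 1057, and a count of 3, taken as the floor, corresponded to 0.0778 to 0.0997 CPM (counts per 1000000 counted reads). Levels are given as CPM of the TMM-normalised library total, which does not correct for gene length, and are therefore compared between libraries and not between genes. All 12 melanocytic markers were measured, and their summed level was 9902 to 10011 CPM in the RC libraries and 9704 to 10192 CPM in the GRP+RC libraries. Cdh1 had no count in any of the 6 libraries, as did the keratinocyte markers Krt14 and Krt1, the fibroblast markers Col3a1, Dpt and Fap and the immune markers Adgre1 and Cd3e. The summed level of 10 fibroblast markers was 8.60 to 9.86 CPM with RC and 9.46 to 11.1 CPM with GRP+RC. That of 10 immune markers was 23.7 to 25.6 CPM with RC and 22.5 to 24.7 CPM with GRP+RC, and neither list's ranges were separate. Most of the fibroblast sum came from Pdgfra (4.62 and 5.76 CPM, edgeR adjusted p = 0.0335) and Postn (4.17 and 4.16 CPM). Most of the immune sum came from Lyz2 (22.2 and 20.7 CPM). For 8 endothelial markers the sum was 8.10 to 8.60 CPM with RC and 7.96 to 9.12 CPM with GRP+RC. Of these, Cdh5 had 4.98 and 5.6 CPM and Tek 2.66 and 1.93 CPM (edgeR adjusted p = 0.0277). All were picked for their level. Of 12 neural crest and undifferentiated markers, the summed level was 279 to 284 CPM with RC and 243 to 245 CPM with GRP+RC, without overlap, and its part in the results was not tested. Most of this sum came from Tfap2b, with means of 177 CPM with RC and 141 CPM with GRP+RC. Sox9 was also lower (14.5 and 10.2 CPM), whereas L1cam was higher (32.9 and 36.5 CPM). These genes were named after their values were seen, and no other tested marker of the list passed an adjusted p under 0.05 (edgeR). The labels do not say whether replicates were separate cultures, so p-values measure only the spread between these libraries.

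Grpr itself was measured at 185, 189 and 186 CPM in the 3 RC libraries and at 167, 178 and 188 CPM in the 3 GRP+RC libraries. The groups overlapped, and the log2 fold change of -0.075 ± 0.036 (SE) did not pass the test (adjusted p = 0.151 from the quasi-likelihood fit of edgeR, adjusted after Benjamini and Hochberg, as are all adjusted p-values here). Without GRP+RC replicate 3, whose Grpr level was the highest of its group, the difference was -0.11 with an adjusted p of 0.0286. Both groups lay below the mock libraries, which had 243, 247 and 246 CPM, and near the libraries given GRP alone, which had 187, 179 and 191 CPM.

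GRP still changed the transcriptome of 1057 in the presence of RC. Of 14195 genes tested, 120 were called higher with GRP+RC than with RC (0.845%) and 9 lower (0.0634%), where a call required an adjusted p under 0.05 together with a log2 fold change beyond 1 in either direction. At the adjusted p alone, 1563 genes were higher (11%) and 1473 lower (10.4%). The calls above the fold limit therefore lay almost all in one direction, whereas the smaller changes were divided nearly evenly. In all 129 called genes the 3 libraries of one group did not overlap the 3 of the other, as was also the case for 34.9% of all genes tested. Of the 120 genes, 60 remained under 1 CPM in both groups and 23 were predicted genes with no established name. The total of 129 became 78 with a stricter filter on low counts and 44 with limma on log2(TPM + 1). In these bulk libraries a change in the number of cells that hold a transcript and a change in its amount per cell cannot be told apart.

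Among the named genes that reached a mean of 1 CPM in either group, the largest rise was that of Tnc, which encodes the matrix glycoprotein tenascin C and lies at chr4:63959785-64047015 (GRCm38). Tnc had 1.27, 1.37 and 1.19 CPM with RC and 7.2, 6.74 and 7.54 CPM with GRP+RC, a log2 fold change of 2.48 ± 0.11 (SE, adjusted p = 2.57e-15). The lowest GRP+RC library stood well above the highest RC library. Ramp3, an accessory protein of receptors of the calcitonin family, followed a similar course, from 3.01, 2.57 and 2.61 CPM to 12.9, 15.9 and 14.3 CPM and a log2 fold change of 2.39 ± 0.11 (adjusted p = 4.06e-12). Of the exon bases of Ramp3, 7.32% are overlapped by another gene on the opposite strand, and whether the authors' counting used strand is not given in the sources used here.

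Further genes named for the size of their rise belong to no pathway list. Sphk1, the kinase that makes sphingosine 1-phosphate, had the smallest p of all genes and was measured at 75.6, 70.9 and 70.1 CPM with RC and 234, 232 and 232 CPM with GRP+RC (log2 fold change 1.69 ± 0.038, adjusted p = 2.60e-21). Its 3 libraries in each group lay within a few CPM of one another. Ptgfr, the Gq-coupled receptor of prostaglandin F2α, had 1.36, 1.37 and 1.36 CPM and 3.48, 4.3 and 4.73 CPM, and its log2 fold change was 1.61 ± 0.18 (adjusted p = 4.76e-07). Ptprn, a transmembrane protein of dense-core secretory granules, rose by a log2 fold change of 2.16 ± 0.15 from 1.25, 0.903 and 1.12 CPM to 4.31, 4.67 and 5.73 CPM. Tmprss11f, a membrane-anchored serine protease, rose by 2.45 ± 0.27 from 0.38, 0.192 and 0.628 CPM to 2.05, 2.15 and 2.21 CPM. The remaining ones were Scrt1, which encodes a transcriptional repressor of neurons and rose by 1.66 ± 0.24, and Samd11, which rose by 1.56 ± 0.28. Samd11 shares 28.5% of its exon bases with genes on the opposite strand.

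**Figure D1:**
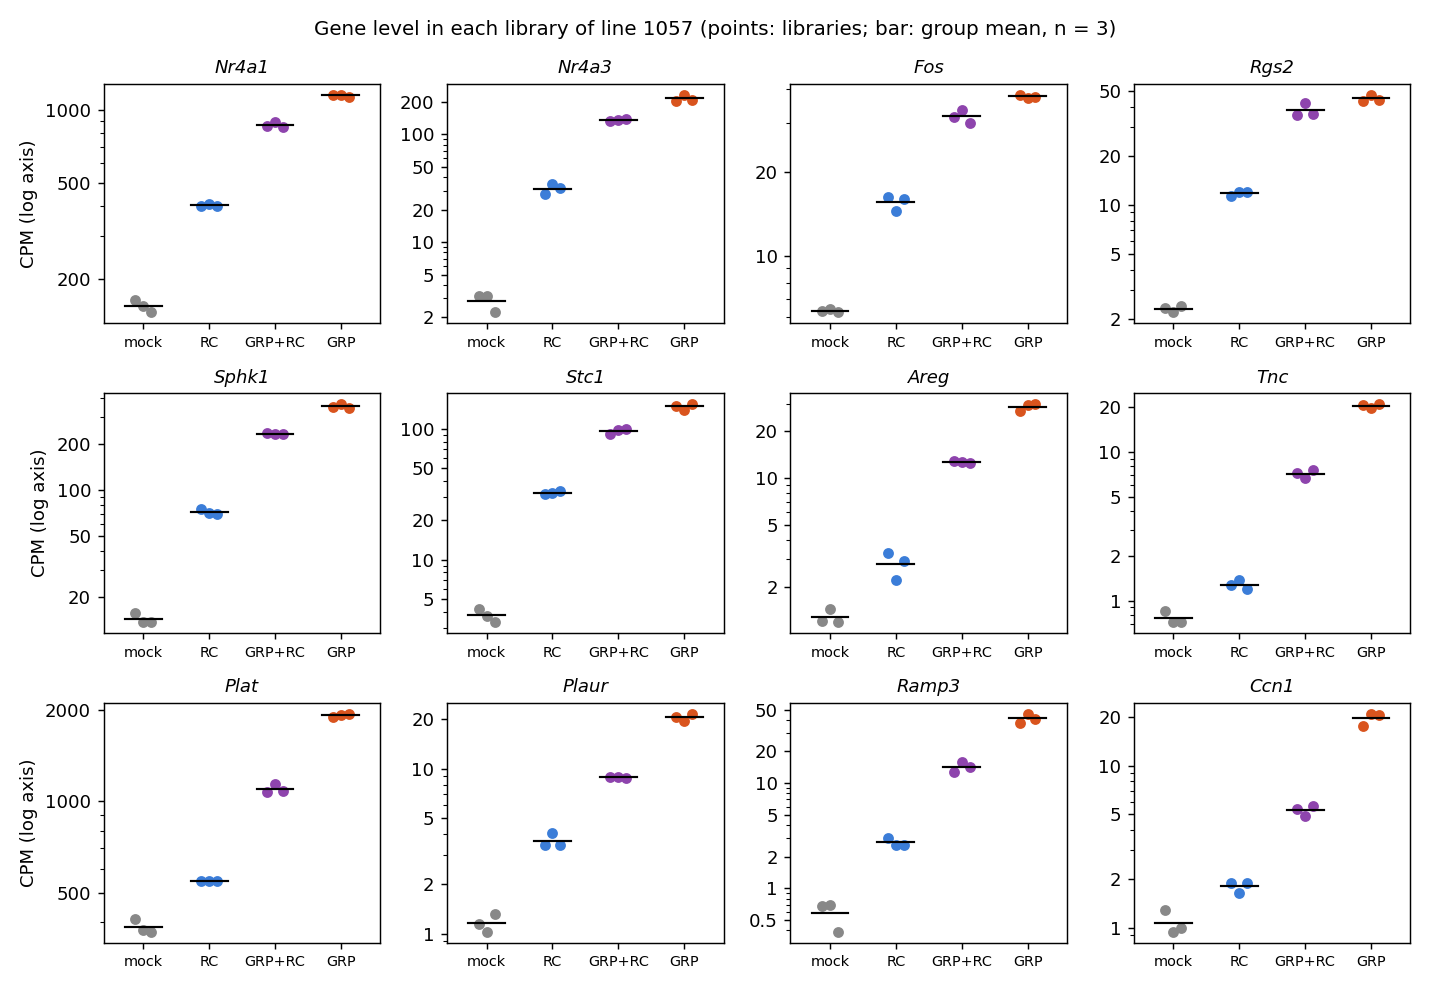
Level of 12 genes in each of the 12 libraries of line 1057, in CPM on a log axis, with 3 libraries (points) and their mean (bar) in each treatment. In every panel the GRP+RC libraries lay above the RC libraries and below the libraries given GRP alone, and the RC libraries lay above the mock libraries.

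Among the named genes the 2 largest fitted fold changes were those of secreted ligands, Inhba and Il11. Of 31 listed ligands and cytokines, 20 were tested, and 13 were higher and 0 lower at the adjusted p, with a median log2 fold change of 0.62 against -0.01 over all genes tested. At the same adjusted p, 11% of all genes tested were higher and 10.4% lower, and the counts of each list stand beside these shares. Areg, a ligand of the EGF receptor, was measured at 3.31, 2.22 and 2.91 CPM with RC and 12.9, 12.7 and 12.5 CPM with GRP+RC (log2 fold change 2.17 ± 0.10, adjusted p = 3.90e-15). Stc1, a secreted glycoprotein hormone of calcium and phosphate handling, rose from 31.5, 32.5 and 33.3 CPM to 92, 97.4 and 100.4 CPM (log2 fold change 1.58 ± 0.046, adjusted p = 2.68e-18). Neither gene's groups overlapped. Nppb, the precursor of the B-type natriuretic peptide, rose by 1.54 ± 0.12, and the chemokine Ccl2 by 0.87 ± 0.20. Inhba, which encodes the subunit of activin A, had raw counts of 1, 1 and 2 with RC and 17, 8 and 15 with GRP+RC, and a fitted log2 fold change of 3.18 ± 0.56 (adjusted p = 0.000137). The cytokine gene Il11 had raw counts of 3, 1 and 4 and 16, 13 and 20 (log2 fold change 2.53 ± 0.46, adjusted p = 0.000159). Il6, another cytokine of that family, had raw counts of 1, 2 and 3 and 10, 6 and 9, with a fold change of 1.96 ± 0.63 on the log2 scale (adjusted p = 0.0256). These 3 fold changes rest on a handful of reads on the RC side and depend on the prior count of the fit, and the call of Il6 was lost when any one of 4 libraries was left out, the adjusted p then lying between 0.0706 and 0.119.

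The promoters of the 5 named genes with the largest rise are shown as a description, and their joint rise follows from that choice. Each line gives the 250 bases before the start of the gene in RefSeq (GRCm38.p6), 5′ to 3′ on the strand of the gene, in lower case, with matches to the motifs searched in capitals. The windows are chr13:16011601-16011850 on the plus strand for Inhba, chr7:4782858-4783107 on the minus strand for Il11, chr4:64047016-64047265 on the minus strand for Tnc, chr5:86632425-86632674 on the minus strand for Tmprss11f and chr11:6658283-6658532 on the plus strand for Ramp3.
Inhba: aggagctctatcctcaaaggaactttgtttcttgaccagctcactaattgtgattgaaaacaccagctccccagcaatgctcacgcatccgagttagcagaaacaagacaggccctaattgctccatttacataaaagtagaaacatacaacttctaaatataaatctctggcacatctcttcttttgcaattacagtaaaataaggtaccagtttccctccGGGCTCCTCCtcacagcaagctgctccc
Il11: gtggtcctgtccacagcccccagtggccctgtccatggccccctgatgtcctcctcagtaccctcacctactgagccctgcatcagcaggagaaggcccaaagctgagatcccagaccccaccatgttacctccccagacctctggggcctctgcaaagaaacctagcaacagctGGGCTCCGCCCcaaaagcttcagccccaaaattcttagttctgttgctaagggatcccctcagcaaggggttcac
Tnc: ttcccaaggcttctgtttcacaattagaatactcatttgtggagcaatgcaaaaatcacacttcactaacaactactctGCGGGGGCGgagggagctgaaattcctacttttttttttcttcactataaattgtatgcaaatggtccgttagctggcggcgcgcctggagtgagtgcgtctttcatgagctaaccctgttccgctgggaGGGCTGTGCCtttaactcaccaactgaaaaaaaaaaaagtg
Tmprss11f: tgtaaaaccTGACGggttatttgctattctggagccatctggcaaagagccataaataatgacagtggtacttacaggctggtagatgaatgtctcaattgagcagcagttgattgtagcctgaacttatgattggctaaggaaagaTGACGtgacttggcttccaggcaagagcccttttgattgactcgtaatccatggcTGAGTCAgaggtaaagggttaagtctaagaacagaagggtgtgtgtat
Ramp3: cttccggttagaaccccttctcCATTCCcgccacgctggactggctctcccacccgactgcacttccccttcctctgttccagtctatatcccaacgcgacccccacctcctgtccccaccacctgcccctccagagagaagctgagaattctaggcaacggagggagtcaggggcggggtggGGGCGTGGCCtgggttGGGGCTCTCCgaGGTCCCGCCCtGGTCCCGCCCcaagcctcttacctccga
Both strands were searched for AP-1 (TGANTCA), the cAMP response element CRE (TGACGTCA) and its shorter form (TGACG), the SRF CArG core (CC and GG with 6 bases between them that are each A or T), EGR (GCGGGGGCG or GCGTGGGCG), TEAD (GGAATG) and NF-kappaB (GGG and CC with any 5 bases between them). AP-1 was found in Tmprss11f, and in 6.75% of 32851 windows of the same length. The shorter CRE form was found in Tmprss11f (17.8% of all windows), EGR in Tnc (3.06%) and TEAD in Ramp3 (12.6%). NF-kappaB was found in Inhba, Il11, Tnc and Ramp3, and in 45.8% of all windows. The whole CRE (1.55%) and the CArG core (1.47%) were found in 0 of the 5. Matches on the 2 strands overlap in Il11 and Tmprss11f, and each match describes letters in these windows only.

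The immediate early transcription factors are induced without new protein synthesis. Of 26 listed and tested, 13 were higher and 2 lower at the adjusted p, with a median log2 fold change of 0.31. Nr4a3 and Nr4a2, orphan nuclear receptors of the same family as Nr4a1, had the largest rises of the list. Nr4a3 was measured at 27.7, 34.5 and 31.7 CPM with RC and 131, 136 and 137 CPM with GRP+RC (log2 fold change 2.11 ± 0.087, adjusted p = 5.15e-08), and Nr4a1 at 400.1, 408 and 398 CPM and 857, 890.4 and 852 CPM (log2 fold change 1.11 ± 0.035, adjusted p = 2.68e-18). Nr4a2 rose from 23.8, 23.9 and 25.4 CPM to 64.1, 64.8 and 65.5 CPM, by 1.41 ± 0.044. All 3 receptors were separated between the groups. The AP-1 subunits rose with log2 fold changes of 1.27 ± 0.15 for Fosb, 1.03 ± 0.055 for Fos and 0.89 ± 0.037 for Fosl2, and Egr4, a zinc finger factor, rose by 1.11 ± 0.27. Fos was measured at 16.4, 14.4 and 16.1 CPM with RC and 31.6, 33.6 and 30.1 CPM with GRP+RC. Members of the same list that did not pass included Egr1 (0.18, adjusted p = 0.0559), Jun (0.16, adjusted p = 0.302) and Atf3 (0.056, adjusted p = 0.329). The 2 lower members, chosen after their values were seen, were Klf2 (-0.58 ± 0.21) and Klf10 (-0.11 ± 0.039).

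Genes that restrain the same signalling pathways formed the next list. Of 24 feedback inhibitors of MAP kinase and G-protein signalling, 14 were higher and 4 lower, with a median of 0.21. Rgs2, which shortens the active state of Gq, was measured at 11.4, 12 and 11.9 CPM with RC and 35.7, 42.1 and 36.2 CPM with GRP+RC (log2 fold change 1.69 ± 0.062, adjusted p = 6.40e-17). Rgs16, a further regulator of G-protein signalling, rose by 1.51 ± 0.26, from 0.434, 0.383 and 0.43 CPM to 1.01, 1.1 and 1.46 CPM. The dual-specificity phosphatases Dusp8 (0.88 ± 0.072), Dusp5 (0.59 ± 0.035) and Dusp14 (0.55 ± 0.12), which inactivate MAP kinases, also rose. Zfp36l1, a protein that promotes decay of AU-rich mRNAs, fell from 409, 416 and 404 CPM to 315, 299 and 298 CPM (log2 fold change -0.43 ± 0.031), although 55.9% of its exon bases are overlapped by a gene on the opposite strand. The other 3 lower members, named after their values were seen, were Dusp4 (-0.19 ± 0.032), Spry1 (-0.21 ± 0.036) and Spry4 (-0.10 ± 0.034), which act on the MAP kinase ERK or the steps above it. Spry2, of the same family as Spry1 and Spry4 and also named after its values were seen, rose by 0.53 ± 0.032. The list thus held members of both directions, and its count of 4 lower is not far from the share of 10.4% lower over all genes tested.

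The CREB and cAMP response list held 10 higher members and 1 lower of 14 tested, with a median of 0.39. It includes Areg, Rgs2, Nr4a1 and Fos, given above, and the kinase gene Sik1, which rose from 13.9, 12.3 and 12.7 CPM to 28.6, 27.1 and 26.6 CPM (log2 fold change 1.08 ± 0.060, adjusted p = 2.29e-13). Crem, whose products include a repressor of cAMP response elements, rose by 0.65 ± 0.047. The lower member was Ppargc1a, a transcriptional coactivator of mitochondrial genes, named after its values were seen (-0.52 ± 0.19, adjusted p = 0.0469). Among 11 tested calcineurin and NFAT genes 0 were higher and 4 lower, with a median of -0.00. The 4 were the transcription factors Nfatc2 (-0.25 ± 0.034), Nfatc3 (-0.11 ± 0.035) and Nfatc4 (-0.94 ± 0.32) and the calcineurin regulator Rcan3 (-0.17 ± 0.036). Nfatc3 and Nfatc4 did not pass with DESeq2 (adjusted p = 0.0723 and 0.0789), without RC replicate 2 (0.127 and 0.129, edgeR) or without GRP+RC replicate 3 (0.0839 and 0.187, edgeR), which left 2 of the 4. Rcan1, the calcineurin feedback gene, had a log2 fold change of 0.13 ± 0.058 that did not pass (adjusted p = 0.13).

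Components of the receptor pathway itself moved little. Of 25 listed genes of the GRP receptor and Gq signalling, 19 were tested, with 2 higher, 6 lower and a median of -0.04. Over all genes tested 11% were higher and 10.4% lower, and the count of 2 higher is near that share. The calcium channels of the endoplasmic reticulum Itpr1 (-0.31 ± 0.031) and Itpr2 (-0.20 ± 0.031), the kinase gene Prkd1 (-0.30 ± 0.076), the phospholipase Plcb3 (-0.18 ± 0.035) and the Ras activator Rasgrp3 (-0.17 ± 0.040) were lower. Itpr1 was measured at 129.7, 129 and 127 CPM with RC and 102, 105 and 105 CPM with GRP+RC, without overlap. The sixth lower member was Gna12 (-0.11 ± 0.034), and the higher members were the protein kinase C gene Prkcd (0.17 ± 0.049) and Gnaq (0.12 ± 0.033), which encodes the α subunit of Gq; Gna12 and Gnaq were named after their values were seen. Prkcd did not pass without GRP+RC replicate 1 or without RC replicate 2 (adjusted p = 0.0534 and 0.0548).

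Proteases that act around the cell, their inhibitors and matrix proteins formed another list with many higher members. Of 22 listed genes of the urokinase system and matrix, 18 were tested, and 13 were higher and 1 lower, with a median of 0.69. Plat, tissue plasminogen activator, was measured at 546, 546 and 546 CPM with RC and 1073, 1138 and 1083 CPM with GRP+RC (log2 fold change 1.01 ± 0.035, adjusted p = 2.21e-17). Plaur, the receptor of urokinase, had 3.44, 4.08 and 3.44 CPM and 8.92, 8.89 and 8.78 CPM (log2 fold change 1.27 ± 0.089, adjusted p = 2.26e-11). In both genes the lowest GRP+RC library was far above the highest RC library. The stromelysins rose as well, Mmp10 from 1.44, 0.848 and 1.03 CPM to 4.83, 5.18 and 3.89 CPM (log2 fold change 2.07 ± 0.16) and Mmp3 by 1.12 ± 0.25. Serpinb2, an inhibitor of urokinase, rose by 1.5 ± 0.25, and 12.4% of its exon bases are shared with the neighbouring Serpinb10 on the same strand. The lower member was Adamts4, a protease of matrix proteoglycans, named after its values were seen (-0.14 ± 0.046, adjusted p = 0.025).

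Of 18 tested genes of integrins and the cytoskeleton 11 were higher and 1 lower, with a median of 0.12. Itga3, the laminin-binding integrin α3, rose from 4.28, 4.1 and 3.84 CPM to 7.72, 8.07 and 9.65 CPM (log2 fold change 1.05 ± 0.10, adjusted p = 1.62e-08). Itgb8 (0.95 ± 0.13), Tagln2 (0.61 ± 0.047), the tropomyosin gene Tpm1 (0.56 ± 0.038) and the calponin gene Cnn2 (0.45 ± 0.077) rose by smaller amounts. Itga2, the collagen-binding integrin α2, fell, from 8.22, 8.29 and 8.37 CPM to 5.17, 5.15 and 5.32 CPM (log2 fold change -0.67 ± 0.10, adjusted p = 1.98e-05). The 2 integrin α subunits named here therefore moved in opposite directions.

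YAP/TAZ target genes were divided. Of 24 listed, 21 were tested, 7 were higher and 6 lower, and the median was 0.06. Ccn1, a matricellular protein, rose from 1.9, 1.64 and 1.89 CPM to 5.43, 4.9 and 5.64 CPM (log2 fold change 1.56 ± 0.12, adjusted p = 2.05e-10). Nt5e, the ectoenzyme that makes adenosine, rose from 7.0, 6.9 and 8.6 CPM to 20.1, 19.2 and 20.8 CPM (log2 fold change 1.43 ± 0.074). Ccn2 (0.75 ± 0.11) and the Hippo kinase gene Lats2 (0.65 ± 0.038) rose less. Of the exon bases of Lats2, 42.4% are shared with another gene on the same strand, and 23.2% of those of Ccn2 with a gene on the opposite strand. Lower members included the tumour suppressor gene Dlc1 (-0.35 ± 0.031) and the stress-response gene Gadd45a (-0.26 ± 0.032). Of the 5 genes of the YAP1 score that the study used, 4 were higher, with a median of 0.65. Crim1 rose by 0.19 ± 0.034 and Tead4, the remaining gene, had 0.058 ± 0.075 (adjusted p = 0.667). As the score genes were chosen by the study that made these samples, their count is not independent evidence of a direction.

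The study's other scores gave fewer tested genes. Of 6 genes of its invasive score 4 were tested, and Tnc and Ccn1 were higher, while Axl, at 0.461, 0.274 and 0.529 CPM with RC and 0.676, 0.34 and 0.28 CPM with GRP+RC, and Tcf4 (-0.00 ± 0.035, adjusted p = 0.964) did not pass. Of 8 genes of its anoikis-resistance score 6 were tested, with 1 higher, Mtpn (0.10 ± 0.032, adjusted p = 0.0257). Mtpn did not pass on log2(TPM + 1) with limma, nor without any one of RC replicates 1 and 3 and GRP+RC replicate 3 (adjusted p = 0.0707 to 0.125). The fatty acid transporter gene Cd36 had raw counts of 1, 3 and 0 with RC and 4, 5 and 3 with GRP+RC and did not pass (adjusted p = 0.233). Cdhr1 (1.22 ± 0.45, adjusted p = 0.0557), Atp10b (0.070 ± 0.41), Rsad2 (-0.13 ± 0.18) and Renbp (-0.028 ± 0.036) did not pass either. The same caution on the choice of genes applies to both scores.

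Stress and metabolic genes were described by further lists. Of 15 ATF4 and stress response genes 8 were higher and 2 lower, with a median of 0.29. Chac1, which degrades glutathione, rose from 1.11, 1.67 and 1.16 CPM to 4.31, 4.64 and 3.71 CPM (log2 fold change 1.68 ± 0.16, adjusted p = 7.14e-09), and the pseudokinase gene Trib3 by 0.92 ± 0.11. Hspa5, the major chaperone of the endoplasmic reticulum, rose from 1047, 1004 and 1075 CPM to 1736, 1839 and 1760.3 CPM (log2 fold change 0.77 ± 0.034, adjusted p = 2.57e-15). Asns (0.48 ± 0.037), Ddit3 (0.38 ± 0.058) and Atf5 (0.34 ± 0.071) rose less, and the 2 lower members, named after their values were seen, were Ddit4 (-0.23 ± 0.040) and Slc7a11 (-0.13 ± 0.036). Their count of 2 is near the share of 10.4% lower over all genes tested. Of 14 cholesterol synthesis genes 12 were higher and 0 lower, with a median of 0.18. Higher members included the synthesis enzyme genes Fdps (0.29 ± 0.077), Idi1 (0.24 ± 0.035), Lss (0.23 ± 0.033), Cyp51 (0.22 ± 0.031) and Hmgcs1 (0.20 ± 0.033). Idi1 was measured at 82.6, 78.2 and 78.1 CPM with RC and 92.9, 98 and 92.2 CPM with GRP+RC. Fdps shares 26.7% of its exon bases with another gene on the same strand.

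Of 13 tested NF-kappaB genes 5 were higher and 2 lower, with a median of 0.09, the higher ones including Il6, Ccl2, Nfkbiz (0.55 ± 0.079) and Tnfaip2 (0.43 ± 0.072) and the lower ones the inhibitors Nfkbia (-0.32 ± 0.069) and Nfkbie (-0.20 ± 0.065). The fifth higher member, named after its values were seen, was Nfkb2 (0.20 ± 0.040). Nfkbie did not pass with DESeq2 (adjusted p = 0.0522) or when RC replicate 1, RC replicate 3 or GRP+RC replicate 3 was left out (0.0678 to 0.253). Of 15 glycolysis and hypoxia genes 2 were higher, the glucose transporter gene Slc2a1 (0.36 ± 0.061) and Vegfa (0.36 ± 0.037), and 2 lower, Adm (-0.22 ± 0.039) and Egln3 (-0.38 ± 0.087), with a median of 0.02. These counts are near the share over all genes tested (11% higher and 10.4% lower). The same holds for the 2 lower of the 13 NF-kappaB genes and the 2 higher of the 18 cell cycle genes. Of the cell cycle genes 5 were lower, with a median of -0.05, and the largest were the inhibitor gene Cdkn1a (0.21 ± 0.036), Ccnd3 (-0.18 ± 0.028) and Plk1 (-0.18 ± 0.053). The replication genes Mcm2 (-0.12 ± 0.034), Mcm5 (-0.13 ± 0.043) and Top2a (-0.12 ± 0.041) were also lower. Of the 5 lower members only 2 passed without RC replicate 1, RC replicate 2 or GRP+RC replicate 1, and 3 without RC replicate 3 or GRP+RC replicate 3, with DESeq2 or with limma on log2(TPM + 1). The second higher member, named after its values were seen, was Ccnd2 (0.11 ± 0.029). Of 10 tested interferon-stimulated genes 0 passed in either direction by edgeR, and the median was -0.07.

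Melanocytic markers, whose sum did not separate the groups, held single genes that moved. Mitf, the master regulator of the lineage, rose from 442, 456 and 439.9 CPM to 604, 652 and 641 CPM (log2 fold change 0.50 ± 0.035, adjusted p = 1.72e-11), and Tyrp1, a pigment enzyme, rose by 0.32 ± 0.038. The endothelin receptor gene Ednrb fell from 148, 149.9 and 148 CPM to 107, 114 and 106 CPM (log2 fold change -0.45 ± 0.032, adjusted p = 3.76e-11), and the receptor gene Kit (-0.19 ± 0.030) and the channel gene Trpm1 (-0.089 ± 0.031) fell by less. Trpm1 did not pass with DESeq2 (adjusted p = 0.0647) or in 5 of the 6 fits that left out a library. The median of the 12 markers was -0.05.

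**Figure D2:**
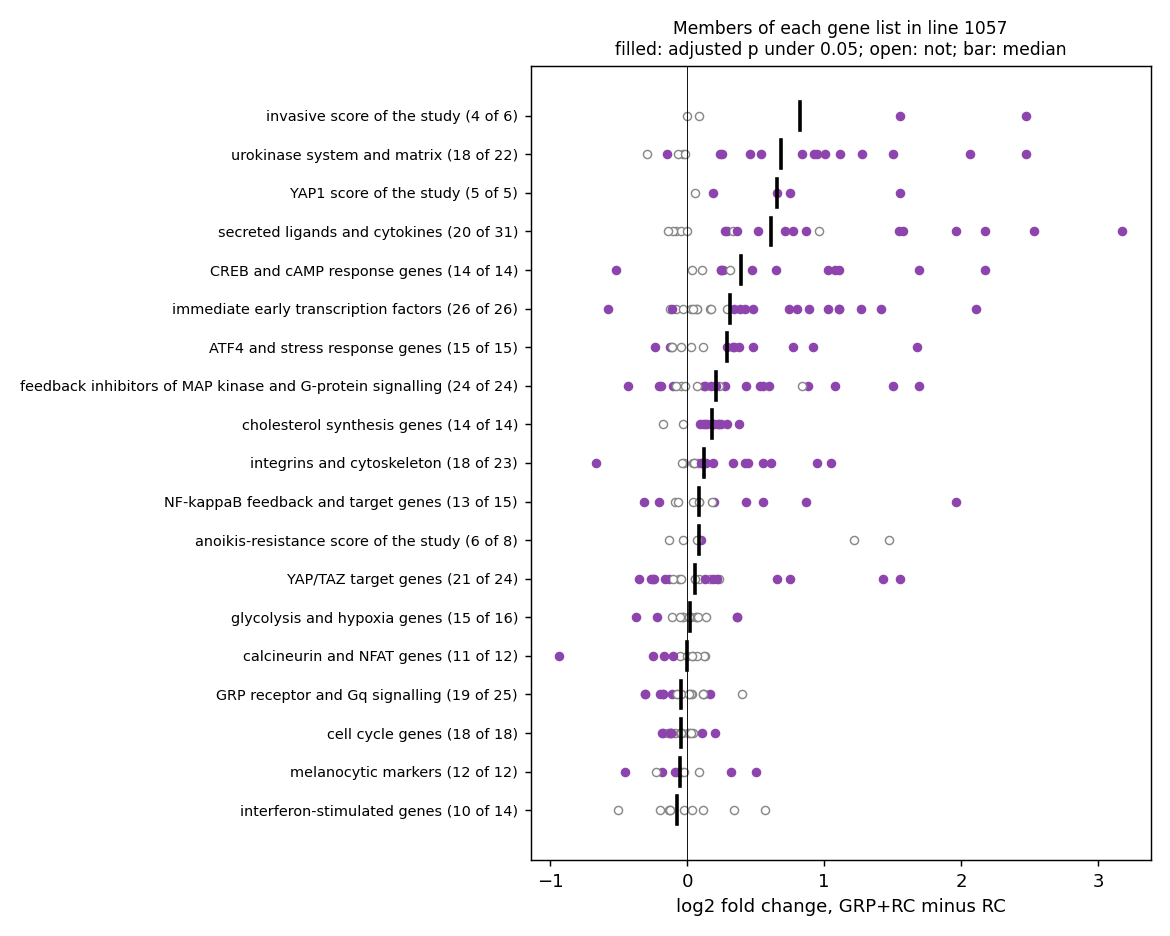
Log2 fold change of GRP+RC against RC in line 1057 for every tested member of 19 gene lists (filled, adjusted p under 0.05; open, not; bar, list median; number tested and listed in brackets). The invasive score, the urokinase and matrix list, the YAP1 score and the secreted ligands had the highest medians, between 0.62 and 0.82, and the interferon-stimulated genes the lowest, at -0.07.

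The genes that fell did so by less. Sox18, a transcription factor of endothelial development, was measured at 1.41, 1.86 and 1.92 CPM with RC and 0.78, 0.312 and 0.654 CPM with GRP+RC (log2 fold change -1.55 ± 0.24, adjusted p = 2.14e-05), and Grrp1 at 2.36, 1.92 and 1.69 CPM and 0.936, 0.765 and 1.18 CPM (log2 fold change -1.06 ± 0.22, adjusted p = 0.000602). These were the only called genes of the 9 lower ones that had an established name and reached 1 CPM. The remaining places of the naming rule went by p and included Erbb3, the receptor of neuregulins, which fell from 139.9, 129 and 133 CPM to 91.5, 86 and 84 CPM (log2 fold change -0.62 ± 0.039, adjusted p = 2.48e-12). The actin nucleator gene Cobl (-0.75 ± 0.052), the orphan receptor gene Gpr37 (-0.68 ± 0.039), the inhibitor of phosphoinositide 3-kinase Pik3ip1 (-0.63 ± 0.037), the progestin receptor gene Paqr7 (-0.54 ± 0.037), the ubiquitin ligase adaptor Klhl24 (-0.50 ± 0.036) and Gpr155 (-0.48 ± 0.034) also fell. Among the other genes named, the share of exon bases overlapped by a gene on the opposite strand was 22.1% for Dusp5, 19.1% for Gadd45a, 12.1% for Hmgcs1 and 10.1% for Rgs16, and it lay between 5.46% and 9.22% for Idi1, Crem, Cdkn1a, Atp10b, Plk1, Tnfaip2 and Stc1.

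The response under RC was then set against the response without it. In the same fit, GRP alone against mock called 704 genes higher (4.96%) and 213 lower (1.5%), and 3633 higher (25.6%) and 3843 lower (27.1%) at the adjusted p alone. These contrasts use different libraries from the comparison of GRP+RC with RC. Of the 120 genes called higher under RC, 112 were also called higher without RC and 6 were not higher at the adjusted p. Of the 9 lower genes 3 were called lower without RC. The 2 contrasts called 0 genes in opposite directions. Across the 14195 genes the log2 fold changes of the contrasts had a Pearson correlation of 0.75, which is across genes of one line and is given as a description. 

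The 704 genes raised by GRP alone had a median log2 fold change under RC of 0.57 (quartiles 0.42 and 0.89), against 1.54 without RC and -0.01 for all genes under RC. In the 3 GRP+RC libraries the median of these genes lay 0.56, 0.54 and 0.61 above the RC mean on the log2 scale, and in the 3 RC libraries it lay at 0.01, -0.01 and 0.01. The GRP+RC libraries were thus separate from the RC libraries and alike among themselves. Of the 704 genes, 681 were above 0 under RC, 464 (65.9%) were higher at the adjusted p and 0 were lower. The median share of the log2 change that was kept under RC was 36.9% per gene (quartiles 28.8% and 44.6%). This share starts from the RC level, which for these genes was above mock by a median of 0.51. It thus does not give the place of GRP+RC between mock and GRP alone. On the scale used above, the median of the 704 genes was -0.44, -0.45 and -0.47 in the mock libraries and 1.02, 0.996 and 1.02 with GRP alone. On the log2 scale the share changed little with the size of the response. It was 37.4% for the 488 genes with a log2 change of 1 to 2 without RC. For the 127 genes between 2 and 3 it was 36.7%, and for the 89 genes above 3 it was 36.4%. In CPM the median share of the rise kept fell across the same groups of genes, from 36.5% to 34.1% and 29.7%. The 213 genes lowered by GRP alone had a median of -0.43 under RC and -1.23 without, with 115 (54%) lower at the adjusted p and a median of 35.4% kept.

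The difference between the 2 effects was tested in the same fit. The effect of GRP was called lower with RC than without in 295 genes (2.08%) and higher in 54 (0.38%). At the adjusted p alone it was lower in 2015 (14.2%) and higher in 1695 (11.9%). Lower and higher are signed, so that higher includes a fall that was weaker under RC. Of the 54 genes, 42 were among the 213 lowered by GRP alone. Of the 704 raised genes, 287 were called smaller under RC and 0 larger. As these genes were chosen for a large change without RC, and that change is subtracted in the difference, the choice favours this direction and also a low share kept, so both describe the set and test nothing. Stc1 had 4.23, 3.69 and 3.33 CPM with mock and 151, 139.9 and 154 CPM with GRP, a log2 change of 5.30, and its change under RC differed from this by -3.73 ± 0.081 (difference of log2 changes, SE; adjusted p = 3.77e-21). Sphk1 went from 15.8, 13.8 and 13.8 CPM to 349.8, 362 and 344 CPM without RC (4.60) and differed by -2.92 ± 0.058 (adjusted p = 1.37e-22). In both genes the level with RC alone was above mock, whereas the GRP+RC level remained below that with GRP alone. Nr4a2 (-1.82 ± 0.067), Nr4a1 (-1.79 ± 0.049), Fosl2 (-1.67 ± 0.053), the ubiquitin ligase gene Hecw2 (-2.99 ± 0.069), Cytip (-2.62 ± 0.075), which binds cytohesins, and the membrane protein gene Emp1 (-2.34 ± 0.069) completed the 8 smallest p-values of this test. Under RC, Hecw2 rose by 1.24 ± 0.043, Cytip by 1.03 ± 0.047 and Emp1 by 1.00 ± 0.047.

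The reference level was itself moved, as RC alone differed from mock. RC alone called 120 genes higher than mock (0.845%) and 12 lower (0.0845%), and the 704 genes raised by GRP had a median of 0.51 for RC against mock. Nr4a1, for example, had 163, 154 and 145 CPM with mock, 402 CPM on average with RC, 866 CPM with GRP+RC and 1145 CPM with GRP alone. In CPM rather than on the log2 scale, the median share of the rise kept under RC was 35.5%. The contrast of RC with mock shares the RC libraries with that of GRP+RC with RC, so the values are set side by side and were not correlated.

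**Figure D3:**
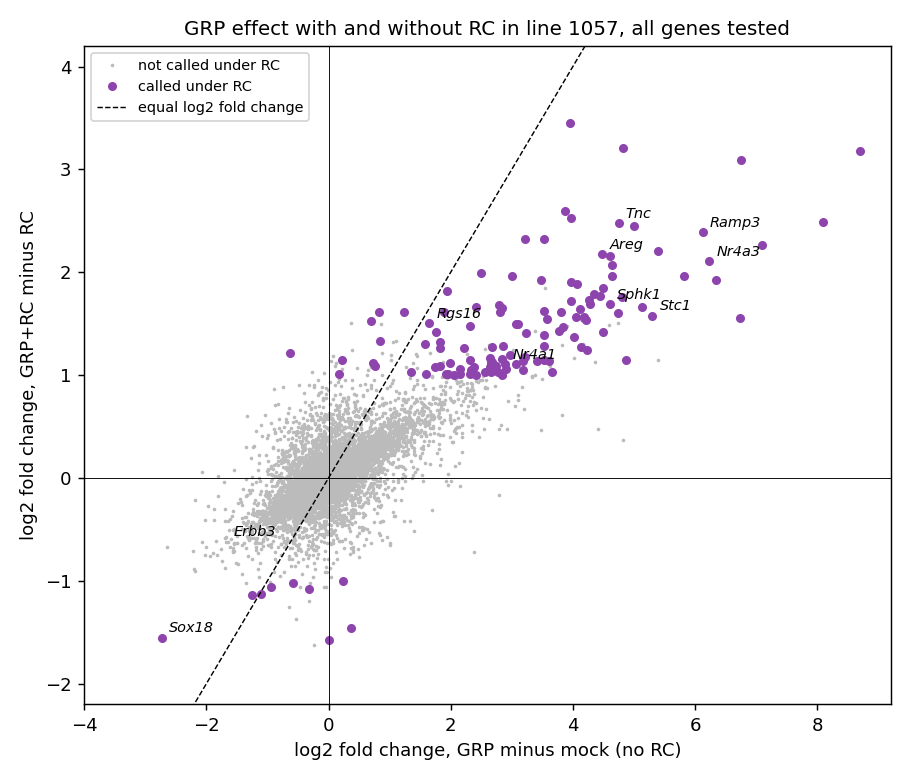
Log2 fold change of GRP+RC against RC (vertical) plotted against that of GRP against mock (horizontal) for the 14195 genes tested in line 1057, with the 129 genes called under RC in purple and a dashed line at equal change. Of the 120 genes called higher, 9 lay above the line, with a larger fold under RC than without.

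The share of the log2 change kept under RC varied between genes, and no gene's share was tested against another's. Of the genes of the naming rule that were higher under RC at the adjusted p, Rgs16 kept the highest share, 91.5%. It was followed by Cnn2 with 73.2%, Scrt1 68.6%, Lss 67.3%, Il11 63.8%, Trib3 63.5% and Chac1 60.1%. Cytip kept 28.2%, Hecw2 29.4%, Stc1 29.7% and Plaur 30.9%. The difference of the effects did not pass for Rgs16 (-0.14 ± 0.39, adjusted p = 0.844), Cnn2 (adjusted p = 0.31), Scrt1 (adjusted p = 0.155), Lss (adjusted p = 0.0768) or Il11 (adjusted p = 0.176), whose share rests on the few reads given above. It passed for Trib3 (-0.53 ± 0.16, adjusted p = 0.0138) and Chac1 (-1.12 ± 0.25, adjusted p = 0.00105). Of the genes of the rule that fell, Nfatc4 had 218%, over a change without RC that did not pass, Grrp1 112% and Rcan3 95%. Of genes named after their values were seen, Gna12 and Ddit4, which fell, had 148% and 117%, and Gnaq, which rose, had 80.6%. The change of Gna12 without RC did not pass. The difference of the effects with and without RC passed for none of these genes that fell, nor for Gnaq.

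The same contrast of GRP+RC with RC was made in 4 further lines of the series, each with 3 libraries a group. 1064 has the genotype of 1057 and is likewise labelled as expressing Grpr, and 1014-Grpr (Tyr::NRASQ61K/°;CMV::Grpr/tGFP) was given Grpr and a green fluorescent protein behind the CMV promoter. The control lines 1014-Ctrl (Tyr::NRASQ61K/°;CMV::tGFP) and 1181-Ctrl (Tyr::NRASQ61K/°; Cdkn2a-/-;°/°;Cdh1dF/dF;CMV::tGFP) carry the fluorescent protein without the receptor and are labelled as negative for it. Per the study, 1014 and 1181 express E-cadherin, 1014 and 1057 are female and 1181 is male, so the lines differ in more than the receptor. In these 4 lines libraries with the same replicate number deviated together, so the replicate number was kept as a block, whereas in 1057 it was not. With the block, edgeR found 139 of 13328 genes higher at the adjusted p in 1064 (1.04%), 1492 of 13159 in 1014-Grpr (11.3%), 0 of 13347 in 1014-Ctrl (0%) and 47 of 13693 in 1181-Ctrl (0.343%). Without the block 0 genes were called in any of the 4 lines by edgeR, where the genes with an unadjusted p under 0.05 numbered 23 in 1064, 911 in 1014-Grpr, 84 in 1014-Ctrl and 24 in 1181-Ctrl, and DESeq2 called 9 in 1014-Grpr and 0 in the other lines.

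Of the 120 genes called higher in 1057, 71 were tested in 1064 with a median log2 fold change of 0.22 and 11 higher at the adjusted p with the block. In 1014-Grpr 56 were tested, with a median of 0.34 and 24 higher. In the lines without receptor the medians were 0.00 over 50 genes in 1014-Ctrl and -0.05 over 49 genes in 1181-Ctrl, with 0 and 1 higher, against 1.45 in 1057. The difference itself was tested in a joint fit with the block within each line. The effect was called larger in 1057 than in 1064 for 53 genes of 14531 (0.365%), 42 of them among the 106 genes of the set that were tested, and larger than in 1014-Grpr for 32 genes of 14774 (0.217%), 21 of them among 107. As the set was chosen for its rise in 1057, these shares describe it and do not test it. Without the block the difference was called for 1 gene against 1064 and for 10 genes against 1014-Grpr.

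Tnc, given above, stood at 0.36 ± 0.12 on the same scale in 1064 (adjusted p = 0.189) and a difference of 2.12 ± 0.18 from 1057 (adjusted p = 1.59e-09), and Tnc was also the 1 gene that was called without the block. In 1014-Grpr the same gene rose by 1.83 ± 0.17, and the difference of 0.64 ± 0.26 did not pass (adjusted p = 0.144). Ccn1 rose in 1014-Grpr by 1.45 ± 0.094 and in 1064 by 0.43 ± 0.080. Sphk1 rose in 1014-Grpr by 0.99 ± 0.094 and had 0.35 ± 0.082 in 1064, where it did not pass. Its rise in 1057 exceeded that in 1014-Grpr by 0.69 and that in 1064 by 1.34 (edgeR, adjusted p at most 9.96e-06 in each joint fit). Plaur rose in 1064 by 0.78 ± 0.086 and in 1014-Grpr by 1.21 ± 0.13, and did not pass in 1014-Ctrl (-0.15 ± 0.15) or 1181-Ctrl (-0.052 ± 0.20).

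**Figure D4:**
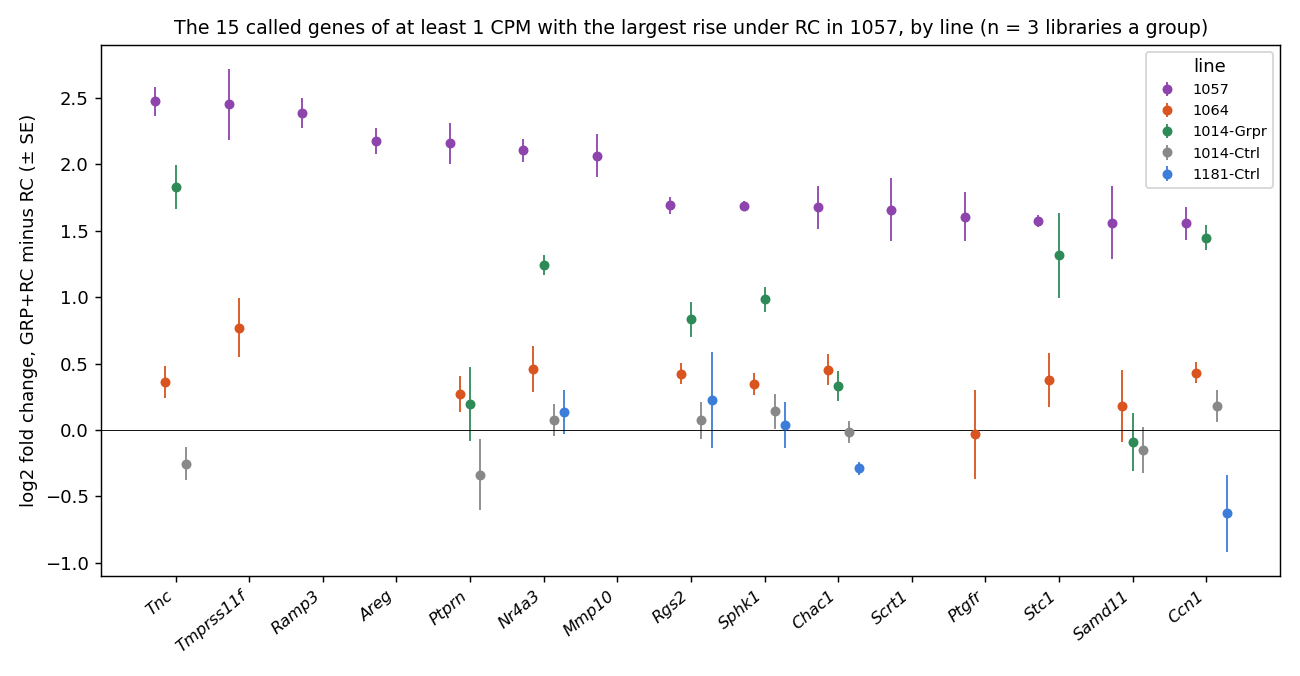
Log2 fold change of GRP+RC against RC (± SE, 3 libraries a group) for the 15 called genes with the largest rise in 1057 among those that reached 1 CPM, in 5 lines; points are missing where a gene did not pass the filter on low counts, and the values of the other lines come from fits with the replicate block. The genes were chosen for their rise in 1057, so that its place above the other lines follows from the choice, and Tnc, Stc1 and Ccn1 had log2 changes of 1.83 ± 0.17, 1.32 ± 0.32 and 1.45 ± 0.094 in 1014-Grpr.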

How the data were processed

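RNA-seq was done on polyA-selected, strand-specific paired-end libraries. Per the labels and the study's methods, the authors checked reads with FastQC 0.11.5 and aligned them with STAR to GRCm38 (mm10) with a GENCODE annotation. The counting tool's strand setting is not given in the sources used here. The authors deposited raw counts per gene and TPM values; the TPM of 1057 are written with a decimal comma, read here as a decimal point, and served only as an alternative.

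Groups came from the labels. The 12 libraries of 1057 were fitted together with edgeR 4.0.16 in R 4.3.3 (filterByExpr, TMM, robust quasi-likelihood test, Benjamini-Hochberg adjustment over 14195 genes of 50600 listed). A call required an adjusted p under 0.05 together with a log2 fold change beyond 1 in either direction. Standard errors were obtained from the log2 fold change and the root of the F statistic. Floors of 3 counts cover counting error only. The other lines and the differences between lines were fitted on their GRP+RC and RC libraries alone, and 1181-Grpr was not used here. A symbol was found for 99.6% of genes. Positions and exon overlaps are from GENCODE for GRCm38 and promoters from RefSeq. The test was tried on simulated data before use.

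Named genes were set by a rule. It took the 15 largest called rises and 10 largest called falls with at least 1 CPM in one group and no overlap, filled by adjusted p where fewer were called; up to 6 members of each list that passed the adjusted p; all tested score genes and Grpr; the 8 genes with the smallest p for the difference with and without RC; and genes called in opposite directions. Predicted genes were counted and not named, and a gene within the rule is not reported here. The members and the gene lists were chosen with earlier results of these data known.

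Replicates that share a number were checked for pairing by the correlation of their deviations from the group means. It was -0.0622 to 0.12 in 1057, over 0.1 for 1 of 3 pairs, 0.879 to 0.933 in 1064, 0.55 to 0.707 in 1014-Grpr, 0.576 to 0.624 in 1014-Ctrl and 0.88 to 0.942 in 1181-Ctrl. The numbers come from the labels. No replicate was a copy of another (chi-square per degree of freedom at least 2.56). The alternatives were DESeq2 1.42.0, RLE scaling, no filter, a stricter filter (1 CPM in 3 libraries), the adjusted p alone, limma 3.58.1 on log2(TPM + 1) and log2(TPM + 0.1), the 6 libraries alone, the replicate block and each library left out. In the 4 other lines the block with the adjusted p alone, and for the differences between lines the block within each line, were chosen after seeing the data.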

Additional observations from a re-analysis of the deposited data

Results flagged for a closer look

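The effect of GRP in 1057 differed between cells with and without RC by a test of the difference in the fit of 12 libraries. At an adjusted p under 0.05 (edgeR) and an absolute difference above 1 on the log2 scale, the effect was lower with RC in 295 genes and higher in 54. Higher here means larger or less negative, and 42 of the 54 genes were among those lowered by GRP alone. In the 8 genes with the smallest p of this test the log2 change was smaller under RC, and the differences (with minus without RC) were -3.73 in Stc1, -2.99 in Hecw2, -2.92 in Sphk1, -2.62 in Cytip, -2.34 in Emp1, -1.82 in Nr4a2, -1.79 in Nr4a1 and -1.67 in Fosl2.

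The effect of GRP under RC differed between 1057 and 1064 in 1 gene, Tnc, and between 1057 and 1014-Grpr in 10 genes, both without the replicate block. Chosen after their values were seen, these 10 were Ptprn, Ttyh1, Nacad, Pgf, Tc2n, Nedd9, Zfp9 and Dclk1, with a larger log2 change in 1057, and Slc40a1 and Fam129a, with a smaller one. Dclk1, a doublecortin-like kinase, had a log2 change of 0.95 in 1057 and -0.13 in 1014-Grpr, a difference of 1.07 (adjusted p = 2.45e-05, edgeR). Fam129a had 0.00 in 1057 and 1.53 in 1014-Grpr, where it did not pass (adjusted p = 0.438). Groups of 3 libraries were not examined for single outlying samples.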

How the results depend on the processing

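Of 129 genes called in 1057 with RC on both sides, the stricter filter left 78, limma on log2(TPM + 1) 44 and the adjusted p alone 3036. DESeq2 called 89, and the count was 106 to 138 with each library left out, lowest without RC replicate 2. Without RC, the 917 calls became 7476 at the adjusted p alone and 931 to 946 with a library left out. For the difference with and without RC, the 349 calls became 3710 at the adjusted p alone, 169 on log2(TPM + 1) and 303 to 348 with a library left out. For RC against mock, the 132 calls became 3522 at the adjusted p alone and 112 to 139 with a library left out. The median of the genes raised by GRP was 0.56 to 0.616 with a library left out, highest without RC replicate 1. With the replicate block, 133 genes were called in 1057 under RC, 913 without RC, 348 for the difference and 129 for RC against mock, and the median was 0.574; the samples of 1057 share only a number, and the block moved none of these counts by over 1.5 times. In the lines whose numbers pair the samples, the block called 37 genes in 1014-Grpr and 0 in 1064, 1014-Ctrl and 1181-Ctrl. With the block and the adjusted p alone, 193 passed in 1064, 2528 in 1014-Grpr, 64 in 1181-Ctrl and 0 in 1014-Ctrl, against 0 in each line without the block and 0 calls with any library left out. DESeq2 called 9 in 1014-Grpr. The difference between 1057 and 1064 was called in 6 genes by DESeq2, in 3 at the adjusted p alone and in 59 with the block within each line, against 1; that between 1057 and 1014-Grpr in 98 at the adjusted p alone and in 41 with the block within each line, against 10. Of the named genes, Tcf4 turned from -0.00 to 0.00 with DESeq2 (0.000266), RLE scaling (0.000279) and the 6 libraries alone (0.00199), and ranged from -0.0228 to 0.027 with a library left out. Atp10b ranged from -0.255 (without RC replicate 1) to 0.381 and Axl from -0.41 (without GRP+RC replicate 1) to 0.311; none of these 3 genes passed the test. The cause of these changes was not tested. At the adjusted p alone, Il6, Mtpn, Trpm1, Mcm2, Mcm5, Plk1, Nfkbie, Nfatc4, Prkcd, Nfatc3 and Top2a no longer passed in at least 1 setting, and Cdhr1 (1.67 without RC replicate 2, adjusted p = 0.0392) and Grpr passed in 1. The other 1248 values of named genes kept their direction and side of the threshold. Depth limits the genes near the floor, among them Inhba, Il11 and Il6.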

Other observations

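The 25 genes with the smallest p-values outside the named set were each higher with GRP+RC than with RC. The genes given here were picked from them after their values were seen, and no gene group was tested. Pdia4 and Pdia6, which form disulfide bonds, had log2 fold changes of 0.65 ± 0.030 and 0.62 ± 0.032 (SE, edgeR, adjusted p = 6.41e-15 and 4.93e-14). The chaperone gene Hyou1 was measured at 362 ± 9.27 CPM with RC and 559 ± 7.47 CPM with GRP+RC (SD, n = 3), a log2 fold change of 0.63 ± 0.030. Creld2 (1.00 ± 0.045), the genes of the degradation complex Syvn1 (0.62 ± 0.033) and Sel1l (0.52 ± 0.029) and the coat gene of export vesicles Sec24d (1.05 ± 0.039) were also higher. Without RC these genes had log2 changes between 1.10 in Sel1l and 2.15 in Sec24d.

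Other genes of this set were Ahr, the aryl hydrocarbon receptor, with 1.11 ± 0.046 under RC and 2.66 without, Lipg, an endothelial-type lipase, with 1.00 ± 0.045 and 2.38, Apold1 with 0.98 ± 0.034 and 2.11, the polyamine enzyme gene Odc1 with 0.81 ± 0.039 and 2.31, the circadian repressor gene Nfil3 with 0.85 ± 0.043 and 2.36 and Nes, which encodes the intermediate filament nestin, with 0.70 ± 0.035 and 1.58. The level of Apold1 was 365 ± 11.9 CPM with RC and 718 ± 23.1 CPM with GRP+RC (SD, n = 3).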
